A study of Mus musculus with 5 samples.

Results

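Metallothioneins are small cysteine-rich proteins that hold zinc and copper in the cytosol, and the transcripts of Mt1 and Mt2 were among the most abundant of both cell populations described here. The 8 genes covered are the 4 mouse metallothioneins (Mt1, Mt2, Mt3 and Mt4), the zinc sensor Mtf1, the zinc exporter Slc30a1 and the zinc importers Slc39a1 and Slc39a10. They were chosen by symbol from 24347 symbols, with their FPKM in these libraries and the difference between the populations already known. Their levels and differences are therefore given as a description with no test. FPKM is a fragment count normalized for transcript length and sequencing depth, so levels of different genes can be compared per length.

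RNA was sequenced from small pools of cells, flow-sorted by TVA, the receptor of an avian virus. The source was the precancerous mammary gland of MMTV-Wnt-1 transgenic mice of mixed FVB, SJL and C57BL/6 background. How TVA came to mark each population is not stated in the labels. All groups carried the Wnt-1 transgene, which the MMTV promoter drives in the mammary epithelium; the ages of the animals were not given in the sources used here. There were 2 libraries of keratin 6a positive (Krt6a+) cells, which the labels call precancerous stem cells and number 2 and 3, and 3 libraries of cells positive for whey acidic protein (WAP+), numbered 1 to 3. Nothing in the labels says that libraries of a group came from separate animals, so spread and p-values measure these libraries only.

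The labels matched the genes that name the populations. Krt6a had FPKM 1380 and 1133 in the Krt6a+ libraries, against 168, 50.01 and 120 in the WAP+ libraries. Wap was listed at 0 in both Krt6a+ libraries, against FPKM 50.1, 126 and 13.9 in the WAP+ libraries. Krt6a+ library 3 carried more luminal RNA than Krt6a+ library 2: the summed FPKM of Krt8, Krt18, Krt19 and Epcam was 1381 and 3713 in Krt6a+ libraries 2 and 3, against 8951, 7824 and 7914 in the WAP+ libraries. Of 8 leukocyte markers found in the tables, 7 were at 0 throughout (Csf1r reached FPKM 1.03 in WAP+ library 1). Of 4 adipocyte markers 3 were at 0 throughout, while Fabp4 was listed at 0 in the Krt6a+ libraries, against FPKM 2188, 65.8 and 20.3 in the WAP+ libraries. The 6 fibroblast markers, mostly Dcn, summed to FPKM 57.5 and 210 in the Krt6a+ libraries, against 17.1, 8.60 and 84.2 in the WAP+ libraries. The 5 endothelial markers summed to at most 0.744 except in WAP+ library 1, at 23.4. In such pools, fewer cells of a type and less RNA per cell cannot be told apart. Gapdh was listed at 0 in 3 of 5 libraries, so a listed 0 is not proof of absence and may be an estimate that failed.

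As background, free zinc in the cytosol is sensed by MTF1, a zinc finger transcription factor that binds metal response elements in DNA and switches on metallothionein genes and Slc30a1. Metallothioneins bind the metal through their cysteines, SLC30 proteins move zinc out of the cytosol, and SLC39 proteins bring it in. Mt1 and Mt2 are made in most tissues and are also induced by glucocorticoids, cytokines and oxidative stress, while Mt3 is best known from brain and Mt4 from stratified squamous epithelium. Lactating mammary epithelium moves zinc into milk.

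The coding sequences of Mt1 and Mt2 show both the feature that defines the family and how far these neighbouring genes differ, which bears on whether their reads could be confused. They are shown 5′ to 3′ from the GENCODE M21 transcripts on GRCm38, where each is split over 3 exons (Mt1 chr8:94179311-94180193, Mt2 chr8:94172848-94173427), with the cysteine codons (tgc or tgt in frame) in capitals.
Mt1 coding sequence: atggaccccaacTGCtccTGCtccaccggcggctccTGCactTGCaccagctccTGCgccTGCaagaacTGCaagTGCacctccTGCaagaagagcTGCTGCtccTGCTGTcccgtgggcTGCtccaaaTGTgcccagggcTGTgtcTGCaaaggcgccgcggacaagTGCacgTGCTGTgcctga
Mt2 coding sequence: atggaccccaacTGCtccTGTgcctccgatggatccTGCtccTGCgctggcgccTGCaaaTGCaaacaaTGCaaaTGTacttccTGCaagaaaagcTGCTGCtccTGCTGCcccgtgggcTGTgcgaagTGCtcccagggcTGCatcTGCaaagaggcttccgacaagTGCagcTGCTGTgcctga
Each encodes 61 residues, 20 of them cysteine (32.8%), and the 20 cysteine codons stand at the same codons in both. The Mt3 and Mt4 coding sequences have 68 and 62 codons before the stop, also with 20 cysteine codons each. The Mt1 and Mt2 coding sequences are identical at 148 of 186 bases (79.6%). The longest run of identical bases that their transcripts share is 20, far below the 100-base reads, and the longest that Mt1 shares with Mt3 is 27. Across 141767 GENCODE transcripts, 0 other genes shared a run of 100 bases with Mt1, and 1 gene model, Gm45774, shared one with Mt2.

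The 4 metallothionein genes stand in a row on the plus strand of mouse chromosome 8, in the order Mt4, Mt3, Mt2, Mt1. In mm10 the deposited Mt1 transcript NM_013602 spans chr8:94179089-94180327, and the Mt2 transcript NM_008630 spans chr8:94172618-94173567, 5.52 kb before it. Mt3 lies 24.9 kb and Mt4 40.1 kb before Mt1. Their promoter windows are shown because Mt1 and Mt2 were the high genes of this row and because both are classic targets of MTF1. Each window runs from 250 bases before to 50 bases after the start of the RefSeq transcript (GRCm38.p6, plus strand). Capitals mark the metal response element core, searched as TGCACNC and TGCGCNC on both strands, so that a match on the other strand appears as its reverse complement. No marked matches overlap one another. The windows of Mt1, Mt2 and Slc30a1 follow.
Mt1, chr8:94178839-94179138: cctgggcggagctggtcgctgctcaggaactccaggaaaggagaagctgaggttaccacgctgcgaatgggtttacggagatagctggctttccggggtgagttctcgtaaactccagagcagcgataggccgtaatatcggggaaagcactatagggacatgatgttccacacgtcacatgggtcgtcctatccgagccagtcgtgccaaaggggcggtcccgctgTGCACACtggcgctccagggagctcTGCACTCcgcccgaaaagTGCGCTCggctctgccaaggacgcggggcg
Mt2, chr8:94172368-94172667: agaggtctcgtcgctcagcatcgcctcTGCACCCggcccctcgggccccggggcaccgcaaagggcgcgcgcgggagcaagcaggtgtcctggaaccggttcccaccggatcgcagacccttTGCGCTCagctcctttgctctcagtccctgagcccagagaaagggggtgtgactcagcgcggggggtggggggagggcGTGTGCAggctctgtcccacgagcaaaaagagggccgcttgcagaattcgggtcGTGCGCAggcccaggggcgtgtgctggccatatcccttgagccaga
Slc30a1, chr1:191906531-191906830: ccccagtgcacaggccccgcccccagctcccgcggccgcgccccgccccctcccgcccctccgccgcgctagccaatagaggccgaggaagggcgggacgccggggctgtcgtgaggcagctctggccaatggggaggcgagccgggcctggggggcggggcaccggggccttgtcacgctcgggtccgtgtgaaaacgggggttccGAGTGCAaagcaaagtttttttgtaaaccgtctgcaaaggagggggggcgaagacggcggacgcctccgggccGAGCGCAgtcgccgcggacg
The Mt1 window held 3 matches and the Mt2 window 4. Of 32851 promoter windows of the same length, 1.97% held 3 or more and 0.517% held 4 or more. The Slc30a1 window held 2 matches, and 7.11% of all windows held 2 or more. Mt3 and Mt4 held 1 each, and 25.7% of all windows held at least 1. In the windows of Mtf1, Slc39a1 and Slc39a10 these letters were not found. Part of the annotated 5′ leader lies beyond the window, and the leaders of the GENCODE transcripts of Mt1, Mt2 and Mt3 held 4, 3 and 3 matches, some of them the same as in the window. A match is a description of the letters and not evidence of binding.

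**Figure D1:**
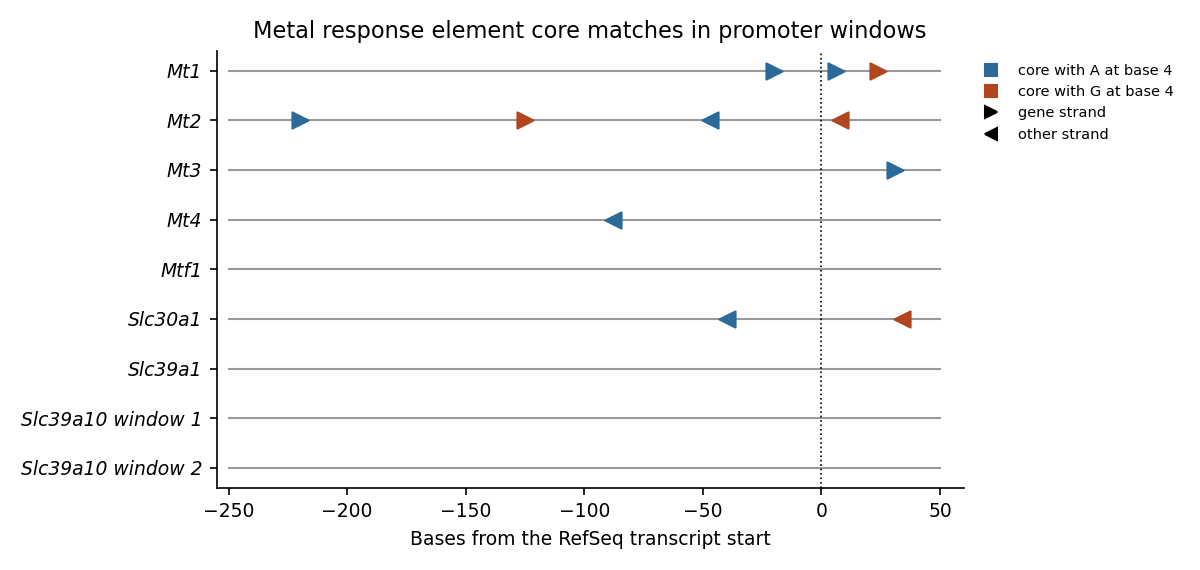
Positions of metal response element core matches in the promoter windows of the 8 genes (horizontal axis, bases from the RefSeq transcript start; one line per window, 2 windows for Slc39a10). Colours give the fourth base of the core and arrowheads its strand; Mt2 has 4 matches, Mt1 has 3, Slc30a1 has 2, Mt3 and Mt4 have 1 each and the other windows have 0.

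Mt1 and Mt2 stood far above the other 6 genes in every library. Mt1 had FPKM 13141 and 22669 in the Krt6a+ libraries, against 29033, 29996 and 27791 in the WAP+ libraries. Both Krt6a+ values lay below all WAP+ values, and Krt6a+ library 2 was the lowest. Among the 23041 symbols with a transcript of at least 200 bases, Mt1 ranked 2 in Krt6a+ library 2, behind the squamous gene Sprr1a, and 1 in Krt6a+ library 3 and in all 3 WAP+ libraries. Divided by a factor per library (scaled FPKM), the mean was 16753 ± 4726 in Krt6a+ libraries (SD, n = 2) and 30099 ± 4047 in WAP+ libraries (SD, n = 3). The log2 difference, Krt6a+ minus WAP+, was -0.87 on the log2(scaled FPKM + 1) scale, or 1.82-fold higher in WAP+.

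Mt2 differed more. Its FPKM was 2879 and 7995 in the Krt6a+ libraries, against 11545, 12660 and 11671 in the WAP+ libraries. The groups did not overlap here either, and Krt6a+ library 2 was again the lowest. Scaled means were 5013 ± 2934 in Krt6a+ libraries (SD, n = 2) and 12474 ± 2049 in WAP+ libraries (SD, n = 3), a log2 difference of -1.44, or 2.71-fold higher in WAP+. Among the same symbols Mt2 ranked 18 and 4 in the Krt6a+ libraries, against 5, 3 and 4 in the WAP+ libraries.

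Counting error was small beside these gaps. The deposited 95% interval of Mt1 had a half-width of 1.40% and 1.29% of the level in the Krt6a+ libraries, against 1.07%, 0.971% and 1.14% in the WAP+ libraries. For Mt2 it was 2.88% and 2.13% in Krt6a+ libraries, against 1.72%, 1.46% and 1.73% in WAP+ libraries. The spread between the Krt6a+ libraries was far wider than that: scaled Mt2 was 2.41 times and scaled Mt1 1.498 times as high in Krt6a+ library 3 as in library 2. Among WAP+ libraries the highest scaled value was 1.37 times the lowest for Mt2 and 1.30 times for Mt1.

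The size of both differences rested on which Krt6a+ library was kept. With Krt6a+ library 3 alone the log2 difference was -0.57 for Mt1 and -0.80 for Mt2, and with Krt6a+ library 2 alone it was -1.16 and -2.07. The luminal marker sum was also lower in Krt6a+ library 2 than in Krt6a+ library 3. On the deposited scale, that sum was highest among WAP+ libraries in library 1, which also had the largest scaling factor, 1.14. Its order among WAP+ libraries therefore cannot be set against that of scaled Mt1 and Mt2. The part of luminal RNA in the result was not tested. Quantile normalization, which gives each rank the same value in every library, left a Mt1 difference of -0.11 and a Mt2 difference of -0.90.

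Mt1 and Mt2 together made up a large share of all FPKM. They accounted for 4.15% and 7.36% of the summed FPKM in the Krt6a+ libraries, against 7.76%, 8.25% and 9.41% in the WAP+ libraries. Unlike the ranks, this sum includes short microRNA entries, which lower the share by an amount that differs between libraries. Mir703 had FPKM 32256.5 in WAP+ library 2 and Mir1938 had 12472 in Krt6a+ library 3. The other 6 genes together summed to FPKM 10.9 and 15.5 in the Krt6a+ libraries, against 18.9, 14.5 and 31.9 in the WAP+ libraries. The balance within the pair differed as well. The ratio of Mt1 to Mt2 was 4.56 and 2.84 in the Krt6a+ libraries, against 2.51, 2.37 and 2.38 in the WAP+ libraries. The WAP+ ratios were nearly the same in all 3 libraries, at 2.42 ± 0.0808 (SD, n = 3), while the Krt6a+ ratios averaged 3.70 ± 1.22 (SD, n = 2). This ratio is taken within a library, so the scaling between libraries does not enter it.

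**Figure D2:**
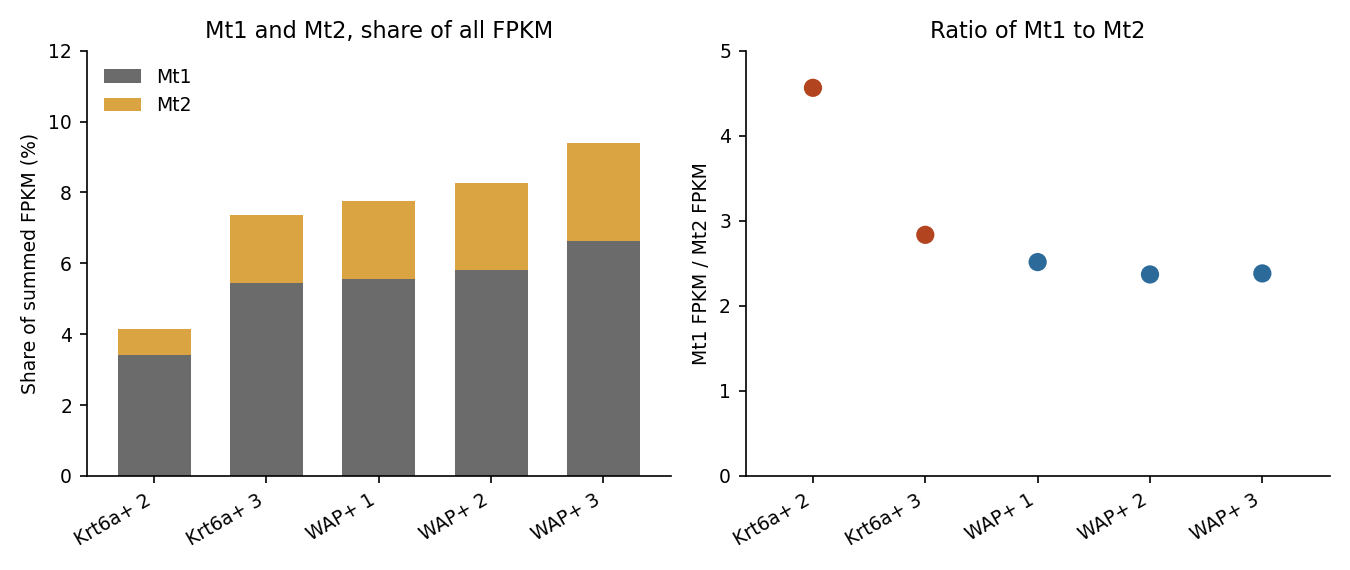
Left, share of the summed FPKM (%, vertical axis) taken by Mt1 and Mt2 in each library (stacked bars); right, ratio of Mt1 to Mt2 FPKM in each library (points, Krt6a+ in red and WAP+ in blue). Krt6a+ library 2 has the lowest share, 4.15%, and the highest ratio, 4.56, and the 3 WAP+ libraries lie between 2.37 and 2.51.

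Mt3 and Mt4, the tissue-restricted members of the family, were near the limit of detection. Mt3 was listed at 0 in both Krt6a+ libraries, against FPKM 0, 4.69 and 7.45 in the WAP+ libraries. The 95% intervals of the last 2 values, 1.38 to 8.01 and 2.64 to 12.3, were wide. Mt4 was listed at 0 in both Krt6a+ libraries, against FPKM 0, 0 and 8.22 in the WAP+ libraries, the last with an interval of 2.74 to 13.7. For both genes the groups overlapped at 0, and no fold is given. Read depth over these transcripts was at most 4.28 reads per base, against 8675 to 18450 for Mt1. The squamous gene Sprr1a was at FPKM 21990 and 6512, against 3859, 1395 and 1458 in the WAP+ libraries.

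Mtf1, the zinc-sensing transcription factor, was the gene of the 8 with higher values in both Krt6a+ libraries than in any WAP+ library. Mtf1 had FPKM 4.09 and 3.63 in the Krt6a+ libraries, against 2.85, 0.979 and 2.21 in the WAP+ libraries. WAP+ library 2 was the lowest. The 95% intervals of Krt6a+ library 3 (3.03 to 4.22) and WAP+ library 1 (2.30 to 3.40) overlapped. Scaled means were 3.70 ± 0.679 in Krt6a+ libraries (SD, n = 2) and 2.04 ± 0.832 in WAP+ libraries (SD, n = 3), a log2 difference of 0.66. The end of the Mtf1 locus on chromosome 4 (124802549 to 124849800) overlaps the model 1110065P20Rik, and reads from the 2 strands cannot be told apart with this kit.

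Slc30a1, the exporter of the plasma membrane and another MTF1 target, varied as much within the populations as between them. Its FPKM was 0.747 and 4.86 in the Krt6a+ libraries, against 7.07, 0.908 and 4.48 in the WAP+ libraries. The groups overlapped throughout. Krt6a+ library 2 and WAP+ library 2 were both low, and their 95% intervals, 0.434 to 1.06 and 0.606 to 1.21, overlapped. The scaled mean was 2.53 ± 2.51 in Krt6a+ libraries (SD, n = 2) and 4.11 ± 2.75 in WAP+ libraries (SD, n = 3). The log2 difference of -0.54 turned to 0.25 without Krt6a+ library 2. The start of this locus on chromosome 1 (191906781 to 191913247) overlaps the model 1700034H15Rik.

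Slc39a1, a broadly expressed zinc importer (NM_013901, chr3:90248192-90253612), had FPKM 5.78 and 6.79 in the Krt6a+ libraries, against 6.60, 5.21 and 8.45 in the WAP+ libraries. The groups overlapped, with scaled means of 5.96 ± 0.0850 in Krt6a+ libraries (SD, n = 2) and 7.06 ± 2.26 in WAP+ libraries (SD, n = 3). Its log2 difference was -0.18, and 0.041 without WAP+ library 3.

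Slc39a10, an importer whose gene MTF1 represses when zinc is plentiful (NM_172653, chr1:46807544-46853509), was low in every library and lowest in Krt6a+ cells. Its FPKM was 0.327 and 0.264 in the Krt6a+ libraries, against 2.35, 2.71 and 1.03 in the WAP+ libraries. The highest upper bound in the Krt6a+ libraries, 0.525, lay below the lowest lower bound in the WAP+ libraries, 0.691. These bounds cover counting error only and give no test between the populations. Scaled means were 0.284 ± 0.0706 in Krt6a+ libraries (SD, n = 2) and 2.08 ± 0.897 in WAP+ libraries (SD, n = 3). The ratio of these means was 7.31 in favour of WAP+. At such low values the log2 difference depends on the pseudocount: it was -1.22 with 1, -2.42 with 0.1 and -0.41 with 5.

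**Figure D3:**
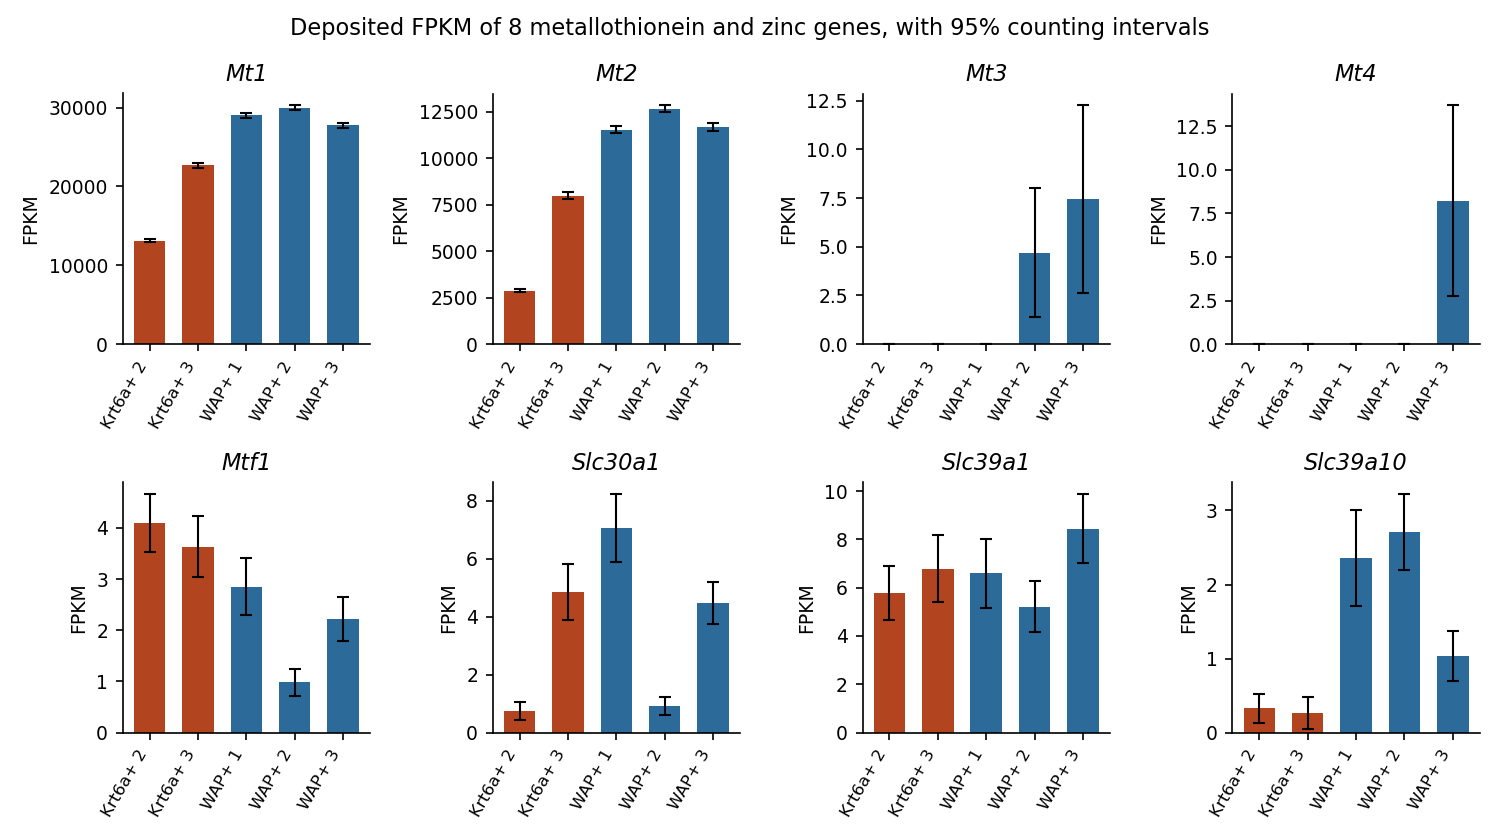
Deposited FPKM (vertical axes, a separate scale for each gene) of the 8 genes in the Krt6a+ libraries (red) and WAP+ libraries (blue); error bars are the deposited 95% intervals, which cover counting error only. Mt1 and Mt2 are lower in both Krt6a+ libraries, Slc39a10 is below 0.33 FPKM there, Mtf1 is higher, and Slc30a1 and Slc39a1 overlap.

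Of the 8 genes, 7 passed the filter of FPKM 1 or more in at least 2 libraries, and Mt4 did not. Mt3 and Slc39a10 passed through WAP+ libraries only, so the filter favoured a lower value in Krt6a+ for them. The libraries did not overlap for Mt1, Mt2 and Slc39a10, lower in Krt6a+, and for Mtf1, higher in Krt6a+. Over all 9682 tested genes the libraries did not overlap for 34.8%, lower in Krt6a+ for 17.4% and higher for 17.4%. By limma, 0.692% of tested genes passed an adjusted p of 0.05, 0.258% higher and 0.434% lower. Since the genes were chosen with this contrast known, nothing is read from their count. Within a library the order of levels was Mt1, Mt2 and then the other 6, all at or below FPKM 8.45. The order among Mtf1, Slc30a1 and Slc39a1 was not the same in every library.

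**Figure D4:**
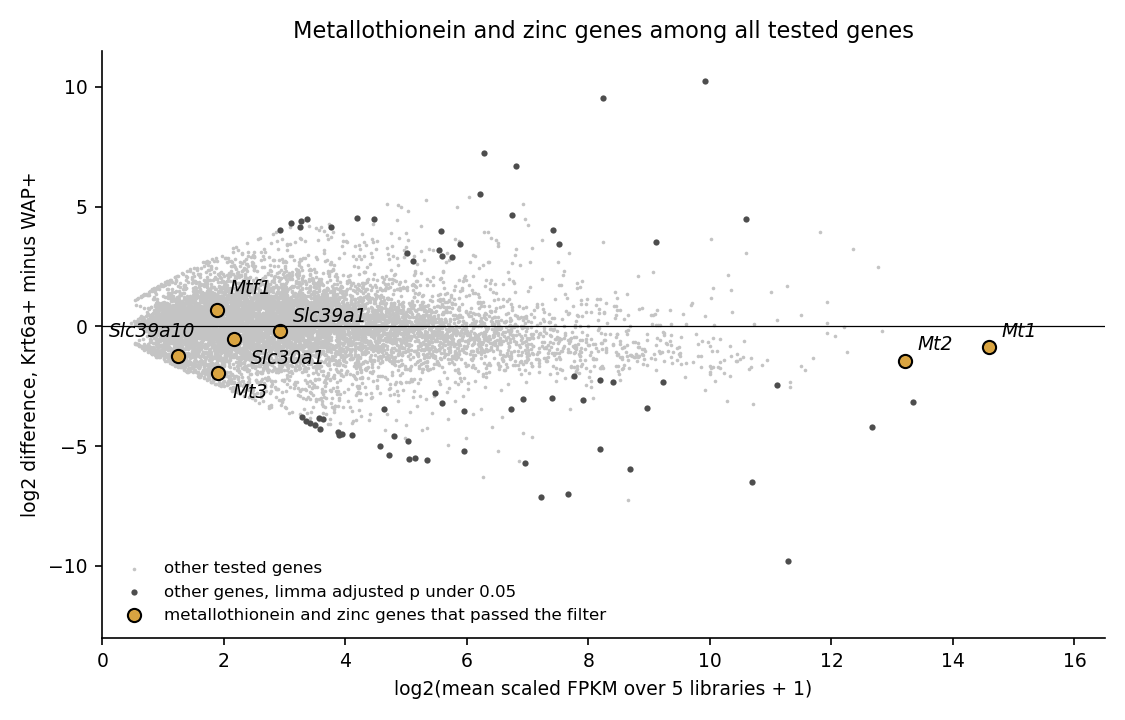
Log2 difference, Krt6a+ minus WAP+ (vertical axis), against the log2 mean scaled FPKM plus 1 over the 5 libraries (horizontal axis) for the 7 genes that passed the filter (yellow, named), other tested genes (light grey) and other genes past the limma threshold (dark grey). Mt1 lies at the far right, as the gene of highest mean, with a log2 difference of -0.87, and Mt2 at -1.44.

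The other zinc transporters, a list of 9 further Slc30 and 12 further Slc39 genes, were compared with limma across all 9682 tested genes, of which 25 passed higher and 42 lower at an adjusted p of 0.05 (39 and 39 with quantile normalization). Of these 21 genes 13 could be tested, and by limma 0 passed in either direction. At an unadjusted p under 0.05, 1 was higher, Slc39a2, and 2 were lower, Slc39a4 and Slc39a14. Over all tested genes the shares at that threshold were 7.66% higher and 9.45% lower. Slc39a2 passed the filter through Krt6a+ libraries only and Slc39a4 through WAP+ libraries only, so the filter favoured the direction of each. The median log2 difference of the 13 was 0.27, against -0.01 over all tested genes.

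Among the exporters, 5 of 9 were tested, with a median of 0.29. Slc30a5, which loads zinc into the secretory pathway, had FPKM 12.8 and 15.4 in the Krt6a+ libraries, against 9.11, 4.05 and 2.73 in the WAP+ libraries (log2 1.29 ± 0.60 SE, limma adjusted p = 0.320). Slc30a7, also a secretory pathway transporter, had 4.38 and 3.34 in Krt6a+ libraries, against 1.40, 1.95 and 2.56 in WAP+ libraries (limma adjusted p = 0.677). Slc30a6, the partner of Slc30a5, ranged from 0.829 to 7.86 in Krt6a+ libraries and from 1.83 to 18.8 in WAP+ libraries (limma adjusted p = 0.824). None of these passed. Slc30a2 and Slc30a4 are the exporters best known from milk secretion. Slc30a2 had FPKM 0 and 2.32 in Krt6a+ libraries, against 0.886, 0 and 0 in WAP+ libraries, and was not tested. Slc30a4 had 6.55 and 6.28 in Krt6a+ libraries, against 6.18, 4.20 and 3.91 in WAP+ libraries (log2 0.29 ± 0.58 SE, limma adjusted p = 0.855). Slc30a8 and Slc30a10 were listed at 0 throughout.

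Among the importers, 8 of 12 were tested, with a median of -0.09. Slc39a14, an importer induced in inflammation that also carries iron and manganese, was lowest in Krt6a+ library 2. It had FPKM 1.22 and 17.8 in the Krt6a+ libraries, against 37.3, 20.6 and 28.0 in the WAP+ libraries (log2 -2.28 ± 0.82 SE, limma adjusted p = 0.208). Without Krt6a+ library 3 it passed (log2 -3.73, limma adjusted p = 0.0313), and it passed under none of the other 13 alternatives. Slc39a4, the intestinal zinc importer, was listed at 0 in both Krt6a+ libraries, against 3.22, 3.798 and 1.32 in the WAP+ libraries (limma adjusted p = 0.179). Slc39a2, another importer of the plasma membrane, had 2.28 and 37.9 in Krt6a+ libraries, against a listed 0 in all 3 WAP+ libraries (limma adjusted p = 0.136). Slc39a7, the most abundant listed importer in all libraries but WAP+ library 3, which releases zinc from the endoplasmic reticulum, had 18.4 and 39.8 in Krt6a+ libraries, against 40.5, 24.0 and 22.7 in WAP+ libraries. Slc39a3 was seen at FPKM 11.9 in Krt6a+ library 2, at 0.0462 in Krt6a+ library 3 and at most 0.951 in WAP+ libraries, and was not tested.

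**Figure D5:**
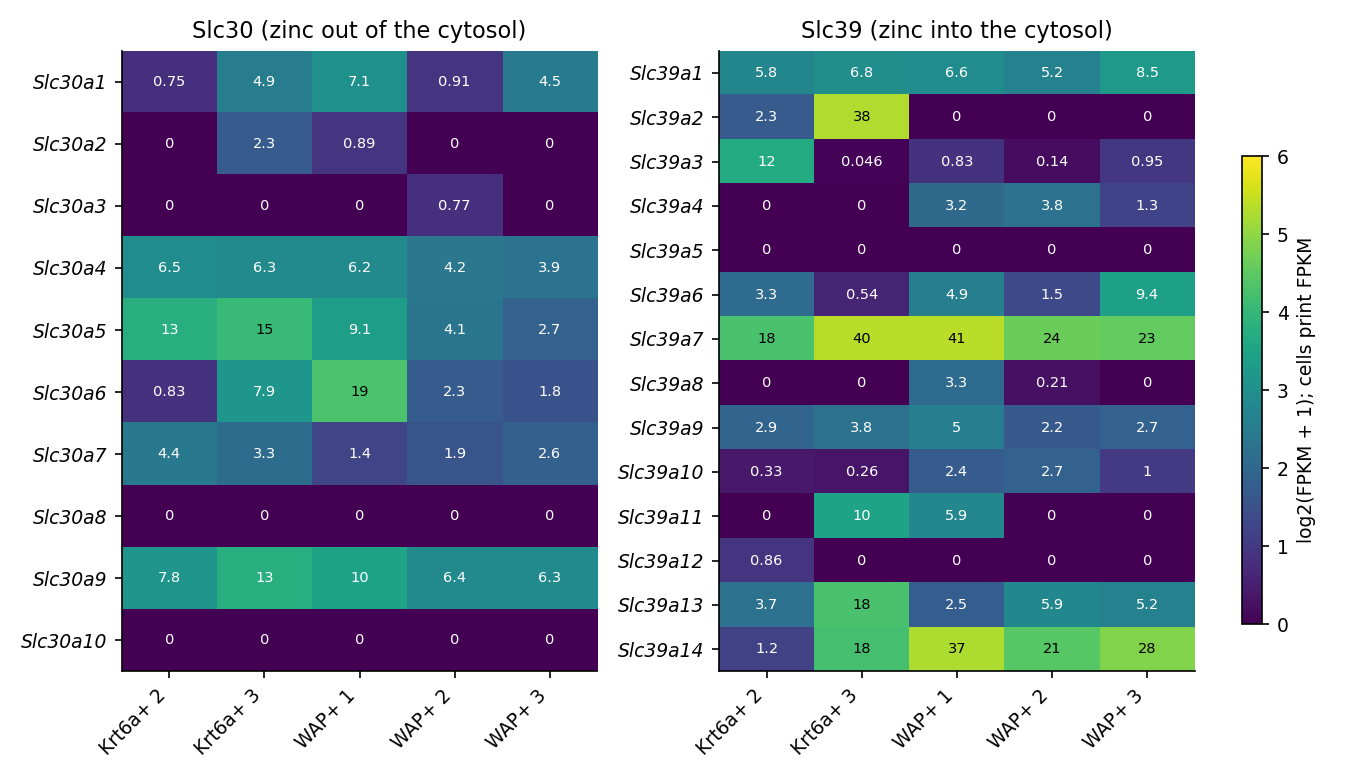
FPKM of all Slc30 and Slc39 genes (rows) in each library (columns); colour is log2(FPKM + 1) and each cell prints the FPKM. Slc39a14 is low in Krt6a+ library 2, Slc39a2 is at 0 in the WAP+ libraries, Slc39a4 is at 0 in the Krt6a+ libraries, and Slc30a8, Slc30a10 and Slc39a5 are at 0 throughout.

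Genes that share regulators with the metallothioneins were compared in the same way. Of 5 other reported MTF1 targets, 0 passed by limma, also at an unadjusted p under 0.05, and their median log2 difference was 0.30. Ndrg1, a stress-induced gene, had the largest statistic, at FPKM 238 and 1042 in Krt6a+ libraries, against 196, 106 and 240 in WAP+ libraries (limma adjusted p = 0.292). Sepw1, a selenoprotein, had 82.0 and 171 in Krt6a+ libraries, against 161, 122 and 100 in WAP+ libraries, and Csrp1, a LIM domain protein, 16.48 and 29.6 against 22.6, 8.78 and 21.6 (limma adjusted p = 0.850 and 0.838).

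Glucocorticoids and IL-6 signalling through STAT3 both induce metallothioneins. Of 10 glucocorticoid response genes, 0 passed by limma, and 2 were lower at an unadjusted p under 0.05, against 9.45% of all tested genes. The median log2 difference was 0.21, with 7 positive and 3 negative differences. The 3 genes with the largest statistics, named next, were the negative ones. Cebpd, a transcription factor of acute responses, had FPKM 61.0 and 51.4 in Krt6a+ libraries, against 225, 152 and 113 in WAP+ libraries (log2 -1.59 ± 0.38 SE, limma adjusted p = 0.0982). Sult1a1, a sulfotransferase, was listed at 0 in Krt6a+ libraries, against 16.6, 6.82 and 6.29 in WAP+ libraries (limma adjusted p = 0.0620). Fkbp5, a chaperone of the glucocorticoid receptor, had 12.7 and 12.9 in Krt6a+ libraries, against 20.9, 18.7 and 24.0 in WAP+ libraries (limma adjusted p = 0.429). Of 10 IL-6 and STAT3 genes, 0 passed by limma. At an unadjusted p under 0.05, 1 was lower, near the 9.45% of all tested genes. It was the receptor Il6ra, listed at 0 in Krt6a+ libraries, against 2.18, 1.31 and 5.51 in WAP+ libraries (limma adjusted p = 0.213). The median of this list was 0.08. Bcl3, an NF-kB cofactor, had 141 and 216 in Krt6a+ libraries, against 111, 70.9 and 95.8 in WAP+ libraries, and the kinase gene Pim1 had 10.9 and 21.2 against 10.7, 2.31 and 5.42 (limma adjusted p = 0.309 and 0.376).

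In the metal and oxidative stress list, 1 of 8 genes passed and it rose in Krt6a+ libraries; of all tested genes 0.258% passed higher. At an unadjusted p under 0.05, 2 were higher and 1 lower, against 7.66% and 9.45% of all tested genes. Hspa1a, the inducible HSP70 chaperone, had FPKM 66.6 and 146 in the Krt6a+ libraries, against 7.75, 10.04 and 10.05 in the WAP+ libraries (log2 3.17 ± 0.50 SE, limma adjusted p = 0.0448). Its call was lost without Krt6a+ library 3 (limma adjusted p = 0.0694) and without WAP+ library 1, 2 or 3 (limma adjusted p = 0.141, 0.200 and 0.169), and it held in 6 of 14 alternatives, over which the adjusted p ran from 0.0133 to 0.200. Hspa1b, a close copy with which reads could be shared, had 51.9 and 204 against 13.6, 20.1 and 35.5 and did not pass (limma adjusted p = 0.172). Txnrd1, the thioredoxin reductase, had 16.3 and 21.8 in Krt6a+ libraries, against 67.6, 40.04 and 47.1 in WAP+ libraries (limma adjusted p = 0.125). The median of the list was -0.41, with 3 positive and 5 negative differences.

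Copper is the other metal that metallothioneins bind. Of 12 tested copper genes 0 passed by limma, 4 were lower and 0 higher at an unadjusted p under 0.05 (9.45% and 7.66% of all tested genes), and the median log2 difference was -0.84. Cox17, which carries copper to cytochrome oxidase, had FPKM 132 and 135 in the Krt6a+ libraries, against 394, 569 and 502 in the WAP+ libraries (log2 -1.97 ± 0.38 SE, limma adjusted p = 0.0607). It passed in 1 of 14 alternatives, with the filter of FPKM 1 or more in every library (limma adjusted p = 0.0242). Steap4, a metalloreductase, had 0.598 and 0.0629 in Krt6a+ libraries, against 6.70, 4.91 and 6.93 in WAP+ libraries, and Cp, the ferroxidase ceruloplasmin, 15.3 and 12.4 against 40.8, 45.9 and 18.9 (limma adjusted p = 0.113 and 0.241).

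Calprotectin, a secreted complex of S100A8 and S100A9, binds zinc outside the cell. Of the 2 genes, 1 passed, against 0.434% of all tested genes passing lower, and 2 were lower at an unadjusted p under 0.05, against 9.45%. S100a8 had FPKM 4.82 and 2.40 in the Krt6a+ libraries, against 2226, 4442 and 4912 in the WAP+ libraries, and it fell in Krt6a+ cells (log2 -9.78 ± 0.54 SE, limma adjusted p = 0.000342), also under all 14 alternatives. Its partner S100a9 was listed at 0 in the Krt6a+ libraries, against 10.6, 9.81 and 116 in the WAP+ libraries, and did not pass (limma adjusted p = 0.0982). Both are also known from myeloid cells. Of the 8 leukocyte markers 7 were listed at 0 in all 5 libraries, and Csf1r had FPKM 1.03 in WAP+ library 1; their part in this result was not tested.

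The genes with the pattern most like Mt1 were found by the root mean square distance between log2 profiles over the 5 libraries, each centred on its mean, among 3645 other genes with a mean scaled FPKM of 10 or more. They were Sod1, Denr, Gm6548, Tuba1c and Snrpb, at distances of 0.06 to 0.10 log2 units. Sod1, the cytosolic copper and zinc superoxide dismutase, was the nearest, with FPKM 42.4 and 66.1 in the Krt6a+ libraries, against 92.1, 101 and 88.5 in the WAP+ libraries. For Mt2 the nearest were Tmed3, Eif4a1, Bud31, Lemd2 and Mogs, at distances of 0.13 to 0.16. Tmed3, a protein of the early secretory pathway, had 11.2 and 25.4 in the Krt6a+ libraries, against 42.7, 41.9 and 39.6 in the WAP+ libraries. The 2 lists held no gene in common. Mt2 itself lay at 0.36 from Mt1 and would have come 299th, and Mt1 would have come 98th for Mt2. By this distance the neighbouring genes were therefore not each other's closest match. Scaled Mt1 and Mt2 nevertheless put the 5 libraries in the same order. The distance also counts the size of differences, and that was larger for Mt2. Likeness over 5 libraries is a description and says nothing of function.

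The other genes of the region were compared with limma. Within 250 kb of Mt1 lay 9 other symbols, of which 5 passed the filter and 3 were listed at 0 throughout. Herpud1, a gene of endoplasmic reticulum stress 206 kb after Mt1, had 47.0 and 166 in Krt6a+ libraries, against 52.1, 13.7 and 32.0 in WAP+ libraries (log2 1.48 ± 0.64 SE, limma adjusted p = 0.294); its groups overlapped on the deposited scale. Nup93, the nearest gene after Mt1 at 34.3 kb, had 0.625 and 13.0 in Krt6a+ libraries, against 9.63, 2.05 and 1.30 in WAP+ libraries (limma adjusted p = 0.982). Nudt21 and Ogfod1 had log2 differences of 0.03 and -0.09, and none of the 4 genes named here passed.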

How the data were processed

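Per the labels' protocols, cDNA from the sorted pools was amplified with the SMART-Seq v4 kit, tagmented with Nextera and sequenced as paired 100-base reads; the kit does not mark strand. Per the submitters' processing notes, the tools were TopHat and Cufflinks and the build mm10; no versions are given in the sources used here. Every deposited table gives, per the file headers, an FPKM normalized by the authors for 34535 RefSeq transcripts, its 95% bounds, and a coverage, the deposited read depth signal per base, used here only to describe depth. Read totals are unknown, and the bounds cover counting error only.

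FPKM was summed by symbol and scaled by a median-ratio factor per library (0.873 to 1.14) over the 5334 genes at 1 or more in all libraries, and the 9682 genes that reached FPKM 1 in at least 2 libraries were tested. Log2(scaled FPKM + 1) was compared with limma 3.58.1 in R 4.3.3 (two-sided, variance trended on the mean, with 4.87 prior and 3 residual degrees of freedom), and p-values were adjusted by Benjamini-Hochberg over all tested genes at 0.05. A fold change on this scale understates that of low genes. Genes listed at 0 throughout a group, such as Slc39a2, Slc39a4, Sult1a1, Il6ra and S100a9, passed the filter through the other group only. The filter favoured the direction of such genes. The procedure was tested on simulated data whose planted changes were far larger than the differences of Mt1 and Mt2. That simulation says nothing of how well smaller changes are detected.

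The 8 genes and all lists were chosen with earlier results of these data known. Named were the 8 genes, Krt6a and Wap, list genes past the threshold or otherwise those with the 3 largest statistics (2 in lists of under 4 genes), the 5 genes nearest in profile to Mt1 and to Mt2, and genes within 250 kb of Mt1, of which 1 that passed the filter is not reported here. Slc30a2, Slc30a4, Slc30a8, Slc30a10, Slc39a3, Slc39a5, Slc39a7, Sprr1a and the cell type markers are named outside this rule, chosen with values known. Alternatives were other pseudocounts, filters, scalings and summaries, no trend, each library left out and a replicate block. Promoter windows are from RefSeq (GRCm38.p6), and all 8 genes were matched by symbol.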

Additional observations from a re-analysis of the deposited data

How the results depend on the processing

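Over all tested genes the counts depended on nearly every setting. Against 25 higher and 42 lower, a pseudocount of 0.1 gave 6 and 20, no filter 2 and 3, a filter of FPKM 1 in all libraries 80 and 99, no mean-variance trend 7 and 9, and a replicate block 15 and 19. A pseudocount of 5 gave 41 higher and 31 lower, quantile normalization 39 and 39, and deposited FPKM with no further scaling 23 and 27, so the excess of lower calls was not kept in all settings. Leaving out 1 library at a time gave 2 to 43 higher and 3 to 101 lower; each of the WAP+ libraries left out gave 2 higher and at most 4 lower, and the cause was not tested. The other zinc transporters gave 0 higher in all 14 alternatives and 0 lower in 13; leaving out 1 library gave 0 to 1, the 1 being Slc39a14 without Krt6a+ replicate 3. The log2 difference of Mt1 was -0.87, -0.11 with quantile normalization, and -1.16 to -0.57 with 1 library left out. That of Mt2 was -1.44, and -2.07 to -0.80 with 1 library left out. Both stayed negative in all 13 alternatives run. Mtf1 kept its direction in 12 of 12. A change of filter cannot move a gene's log2 difference, and the pseudocount hardly moved that of Mt1 or Mt2. These counts are therefore not a measure of stability. Mt3 and Slc39a10 passed the filter through WAP+ libraries alone, and Mt3 was at 0 in both Krt6a+ libraries, so their direction says nothing of stability. Mt3 could not be fitted without WAP+ replicate 2 or 3, where it fails the filter. Slc30a1 turned to 0.25 without Krt6a+ replicate 2 and Slc39a1 to 0.041 without WAP+ replicate 3; with 1 library left out they ran from -1.34 to 0.25 and from -0.29 to 0.041. In fits with 1 Krt6a+ library, that library is assumed to vary like the WAP+ libraries. For libraries of replicate numbers 2 and 3, the deviations from group means correlated at 0.05 and 0.00027 across genes, which are not independent replicates. With 2 Krt6a+ libraries both values rest on the same Krt6a+ difference. They cannot show whether the replicate numbers pair libraries. The replicate block gave -0.98 for Mt1 and -1.58 for Mt2. The number of libraries limits what the test can detect.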
